A study of Homo sapiens with 6 samples.

Results

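The WNT target and intestinal stem genes studied here are AXIN2, LGR5, ASCL2, NKD1, SP5, TCF7, LEF1, RNF43, ZNRF3 and APCDD1. They were taken by symbol from a table of 27942 genes, and all 10 were found, each in 1 row. RNA was sequenced from HCT116 cells, a human colorectal carcinoma line that the study lists as wild-type for p53 and APC and mutated in CTNNB1, the β-catenin gene. In 3 libraries the cells had received 0.5 µM oxaliplatin for 24 h (OXA), and in 3 they were left untreated (NT). Oxaliplatin is a platinum compound that forms DNA adducts. The labels do not say whether the libraries of a group came from separate cultures, so p-values measure the spread between these libraries, which may be technical.

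In canonical WNT signaling, a ligand bound to Frizzled and LRP receptors stops the destruction complex of APC, AXIN and GSK3 from marking β-catenin for degradation. β-catenin then enters the nucleus and activates genes together with TCF and LEF factors. Several of the genes it activates restrain the pathway in turn, and in the crypts of the intestine others maintain stem cells. AXIN2, NKD1, APCDD1, RNF43 and ZNRF3 encode such feedback inhibitors. TCF7, LEF1, SP5 and ASCL2 encode transcription factors, and LGR5 encodes a receptor for R-spondins that marks crypt stem cells. A mutated β-catenin that escapes the destruction complex can drive genes of this kind without a ligand, though not every one of them in every cell type.

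Library totals lay between 32979521 and 40967880 counts. The p53 targets CDKN1A and MDM2, used to check the treatment label, rose in OXA by log2 fold changes of 2.93 and 2.22. All 10 markers listed for colorectal epithelium had counts, and their summed level was between 2548 and 3559 CPM (each count scaled by the total of its library) in NT and between 3748 and 4518 in OXA. Of 14 markers of fibroblasts, endothelium and leukocytes, LUM and DCN had no count, and the summed level was between 8.63 and 15.4 CPM in NT and between 11.6 and 14.7 in OXA. The summed epithelial markers did not overlap between the groups, but the single markers were mixed. Of the 10, 6 had a log2 fold change above 0 and 4 below 0, from -0.42 to 1.29. None passed an edgeR adjusted p of 0.05, while the replicate block named below gave 4 higher and 2 lower. Over all genes tested, the block gave 12.1% higher and 10.9% lower. The part of these markers in the results below was not tested. Over all genes tested, departures from the group means correlated between NT and OXA libraries of the same number (0.55, 0.54 and 0.31). Single genes could depart in opposite directions. The values with a replicate block are therefore given where the block changes a call. NT library 1 and OXA library 1 weighed most on the number of calls.

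The RefSeq promoter window of SP5, a transcription factor gene, held the TCF/LEF motif 3 times. A window spans 250 bases before to 50 after a transcription start (GRCh38.p14), and the table of windows had entries for 5 of the 10 genes, namely SP5, TCF7, LEF1, RNF43 and APCDD1. The motif was searched on both strands in the forms CTTTGAT and CTTTGAA. It was found in 6.86% of all 35116 windows and in 1 of the 7 windows of these 5 genes. A cutoff of 3 or more matches, the number in SP5 itself, was met by 9 of all windows (0.0256%), that of SP5 included. The part of the window before the start is shown for SP5, as the gene with matches and with the largest estimated change below. Capitals mark the motif, which reads TTCAAAG where CTTTGAA lies on the other strand.
SP5 (chr2:170715087-170715336, plus strand): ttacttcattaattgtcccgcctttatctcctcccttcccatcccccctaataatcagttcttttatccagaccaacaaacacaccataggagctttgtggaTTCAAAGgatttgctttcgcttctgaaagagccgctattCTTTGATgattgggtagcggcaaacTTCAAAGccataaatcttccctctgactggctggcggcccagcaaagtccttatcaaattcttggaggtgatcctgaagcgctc

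The matches in SP5 started 148, 109 and 84 bases before the transcription start and did not overlap. No match was found in the windows of TCF7, RNF43, LEF1 or APCDD1, which says only that these letters are not there. AXIN2, LGR5, ASCL2, NKD1 and ZNRF3 had no entry.

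HCT116 cells expressed 6 of the 10 genes at a level that could be tested, and 4 were at or near 0. LEF1 (ENSG00000138795, chromosome 4 of GRCh38 from 108047545 to 108168956), ASCL2 (ENSG00000183734, chromosome 11 from 2268498 to 2270588) and APCDD1 (ENSG00000154856, chromosome 18 from 10454635 to 10489949) had 0 counts in all 6 libraries. A count of 0 allows up to 3 counts, which is between 0.0732 and 0.0910 CPM in these libraries, for counting error only. LGR5 (ENSG00000139292, chromosome 12 from 71439798 to 71586310) had 1, 3 and 1 counts in NT libraries 1 to 3, and 2, 0 and 0 in OXA. These values are at or under the floor of 3 counts, so no fold change is given. Among the TCF/LEF and stem factors, then, TCF7 and SP5 were detected above the floor, and LEF1, ASCL2 and LGR5 were not.

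Levels of different genes are compared as CPM per kilobase of merged exons, computed from the raw counts and the GENCODE annotation. In NT, RNF43 was the highest, at 22.9 ± 2.88 (mean ± SD, n = 3), followed by AXIN2 at 8.54 ± 0.666 and TCF7 at 5.26 ± 0.611. ZNRF3, which encodes the close relative of RNF43, had 4.34 ± 0.355. NKD1 was at 1.89 ± 0.129, SP5 at 0.610 ± 0.182 and LGR5 at 0.00910 ± 0.00675. In NT no library of a gene reached the libraries of the next one in this order, although TCF7 and ZNRF3 were separated only narrowly, with 4.65 as the lowest TCF7 value and 4.64 as the highest of ZNRF3. In OXA the order was the same, and TCF7 (4.23 ± 0.424) and ZNRF3 (4.10 ± 0.158) overlapped. AXIN2 was at 5.03 ± 0.248 on this scale, close to TCF7. With the longest transcript in place of merged exons, TCF7 in NT was at 9.94, near AXIN2 at 10.4 and well above ZNRF3 at 4.41. In OXA, TCF7 then stood above AXIN2, at 7.99 against 6.13. The place of TCF7 relative to AXIN2 and ZNRF3 thus depends on the length used.

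**Figure D1:**
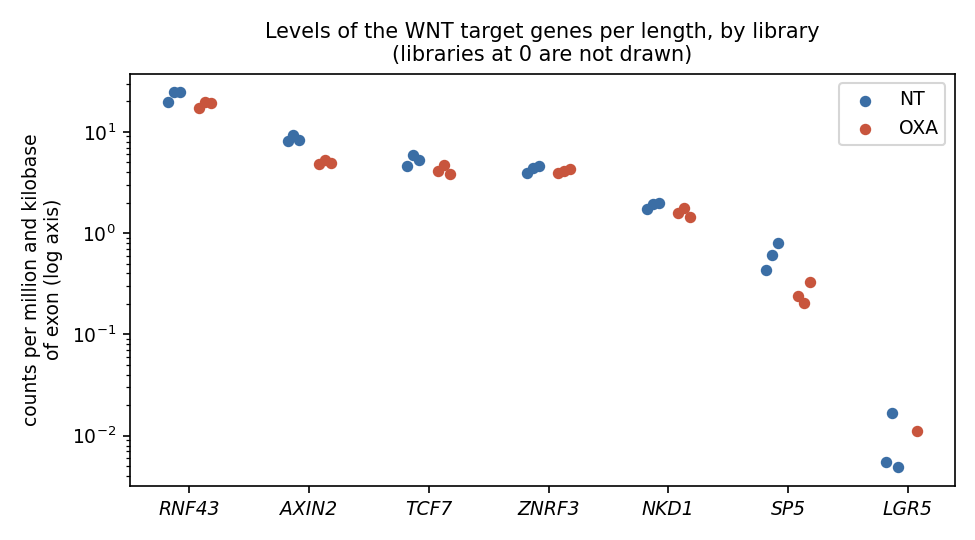
Level of each WNT target gene with any count in CPM per kilobase of exon (log axis), one point per library, NT in blue and OXA in red. Libraries at 0 are not drawn, as for LGR5 in OXA libraries 2 and 3, and LGR5 was at or under the floor of 3 counts. RNF43 lies highest, near 22.9 in NT, SP5 near 0.610 and LGR5 near 0.00910, and AXIN2 and SP5 are the genes whose NT and OXA points lie clearly apart.

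Of the 6 genes tested, AXIN2 fell in OXA, and none of the others passed the threshold in either direction. AXIN2 encodes a scaffold of the destruction complex and is widely used as a readout of β-catenin activity. Genes lower in OXA at an edgeR adjusted p-value under 0.05 made up 2.29% of the 13727 genes tested, and higher ones 2.78%. Before adjustment, 4 genes were lower and 0 higher at a p under 0.05, where 11.1% of all genes tested were lower and 10.7% higher. DESeq2 and limma-voom each called 1 of the 6 lower and 0 higher. Over all genes, DESeq2 called 4.91% lower and 4.92% higher, and limma-voom 2.11% and 2.73%. The log2 fold changes of the 6 were all below 0, with a median of -0.27 where the median over all genes tested was 0.023. With the replicate block, 4 of the 6 were lower (AXIN2, SP5, RNF43 and TCF7) and 0 higher, against 10.9% lower and 12.1% higher over all genes tested.

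AXIN2 (ENSG00000168646, chromosome 17 of GRCh38 from 65528563 to 65561648, minus strand) had 1459, 1644 and 1674 raw counts in NT libraries 1 to 3, and 860, 910 and 1051 in OXA libraries 1 to 3. After TMM normalization these were 1491, 1709 and 1528 in NT against 930.5, 992 and 936 in OXA. Every OXA library lay below every NT library, and the OXA values were close together. The means were 1576 ± 116 and 953 ± 34.0 (SD, n = 3), with a log2 fold change of -0.73 ± 0.099 (SE) and an edgeR adjusted p of 0.00983, so that AXIN2 in OXA was at 60.5% of NT. Within pairs of the same number the log2 difference was -0.68, -0.78 and -0.71. With the replicate block the adjusted p was 0.00293. Leaving out any of the 3 OXA libraries lost the call at a similar size, with an edgeR adjusted p of 0.0773 without OXA library 1, 0.0525 without OXA library 2 and 0.0562 without OXA library 3. In bulk RNA, less AXIN2 RNA per cell and fewer cells that express it cannot be told apart. A gene model on the same strand, ENSG00000266076, shares 25.3% of the exon bases of AXIN2 and had between 0 and 20 counts.

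SP5 (ENSG00000204335, chromosome 2 from 170715337 to 170718078, plus strand), a zinc finger factor of the SP family and the gene with the motif matches above, was low. Raw counts in NT were 31, 43 and 64, and those in OXA were 17, 14 and 28. In normalized counts NT had 31.7, 44.7 and 58.4 and OXA 18.4, 15.3 and 24.9. The groups did not overlap, as was the case in the same direction for 14.4% of all genes tested, and in the opposite direction for 14.5%. The means were 44.9 ± 13.4 in NT and 19.5 ± 4.94 in OXA, with a log2 fold change of -1.19 ± 0.33 (SE), the largest estimate of the 6 genes and the one with the widest interval, from -1.95 to -0.43 at 95% confidence. Its edgeR adjusted p was 0.0839, above the threshold. The replicate block brought it to 0.0270. With single libraries left out, the log2 fold change lay between -1.44 and -0.98, and SP5 passed in 1 of 6 fits, that without NT library 1 (0.0352), while the others reached an edgeR adjusted p as high as 0.271. The differences within pairs were -0.78, -1.55 and -1.23.

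**Figure D2:**
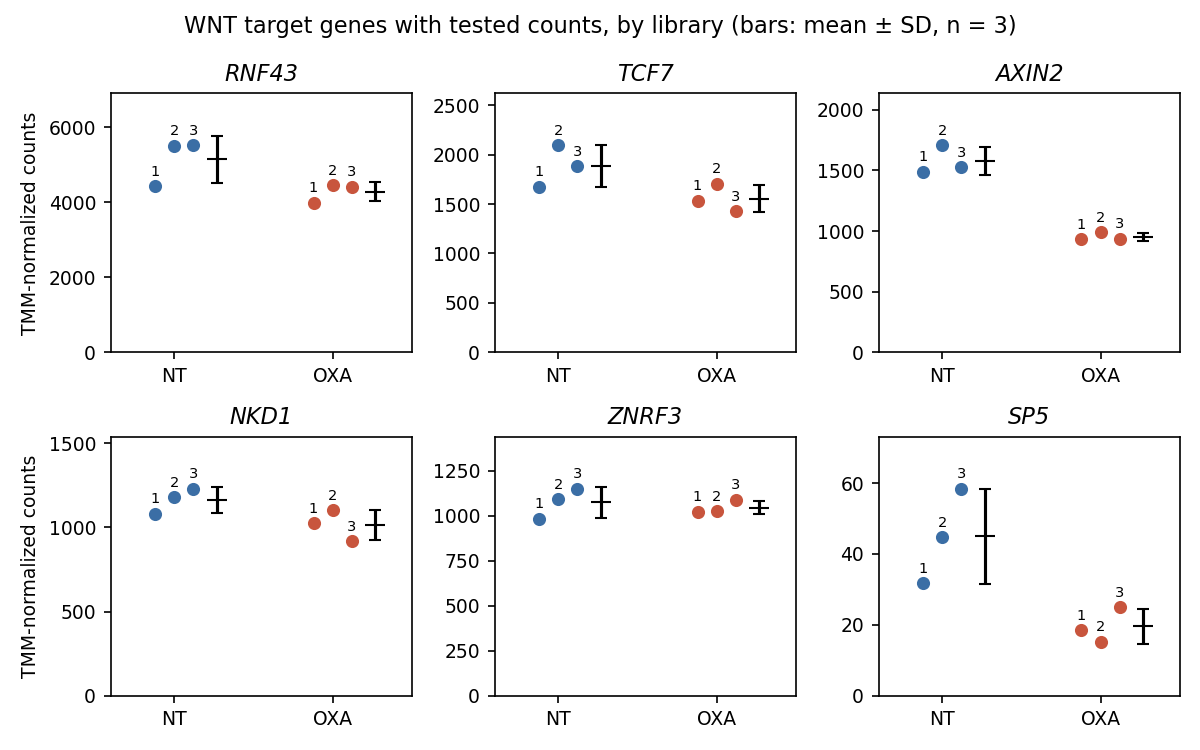
TMM-normalized counts of the 6 tested genes in each library (points labelled with the replicate number, NT in blue and OXA in red), with the mean ± SD of each group in black and every axis starting at 0. The NT and OXA points do not overlap for AXIN2 and SP5 and overlap for RNF43, TCF7, NKD1 and ZNRF3.

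TCF7 (ENSG00000081059, chromosome 5 from 134114681 to 134151865, plus strand), which encodes TCF1, was at 1674, 2096 and 1883 normalized counts in the NT libraries and at 1533, 1705 and 1428 in the OXA libraries. OXA library 2 lay above NT library 1, so the groups overlapped. The log2 fold change was -0.28 ± 0.12 (SE), which did not pass (edgeR adjusted p = 0.227). Within pairs OXA was lower each time, by -0.13, -0.30 and -0.40, and with the block the adjusted p by edgeR was 0.0439. That call was lost when the block was combined with the gene-specific factors of the authors (edgeR adjusted p = 0.126). SKP1, on the other strand, overlaps 2.08% of the exon bases of TCF7 and had between 9026 and 11656 counts, and the strand setting of the counting is not given in the sources used here.

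The paralogs RNF43 and ZNRF3 encode membrane E3 ubiquitin ligases that remove Frizzled receptors from the cell surface. RNF43 (ENSG00000108375, chromosome 17 from 58353676 to 58417595, minus strand) was at 4417, 5499 and 5517 normalized counts in NT, and OXA had 3986, 4445 and 4409.6. The OXA values sat around that of NT library 1 and below the other NT libraries. This overlap depends on the scaling. In CPM per kilobase the highest OXA value, 19.53, lay just below the lowest of NT, 19.57. The log2 fold change was -0.27 ± 0.11 (SE) without a call (edgeR adjusted p = 0.220), whereas the block gave -0.26 ± 0.057 (edgeR adjusted p = 0.0270). With single libraries left out, RNF43 passed in 1 of 6 fits, that without NT library 1 (-0.36, edgeR adjusted p = 0.0381), and the adjusted p was up to 0.496 in the others. A second gene model, ENSG00000285897, overlaps 68.4% of the exon bases of RNF43 on the same strand and had 25 to 66 counts, so the division of reads between them is uncertain. ZNRF3 (ENSG00000183579, chromosome 22 from 28883572 to 29057488, plus strand) was at 983, 1093 and 1151 normalized counts in NT, and at 1022, 1025 and 1089 with oxaliplatin. The ZNRF3 values of OXA lay within the range of NT, with a log2 fold change of -0.041 ± 0.10 (SE) and a 95% interval from -0.28 to 0.20 (edgeR adjusted p = 0.859).

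NKD1 (ENSG00000140807, chromosome 16 from 50548396 to 50649249, plus strand) encodes an inhibitor that binds Dishevelled. Its normalized counts were 1081, 1178 and 1230.2 for NT, and 1025, 1101 and 919.5 for OXA, and the groups overlapped. Its log2 fold change was -0.20 ± 0.11 (SE), with a 95% interval from -0.45 to 0.060 (edgeR adjusted p = 0.358), and the replicate block gave no call (edgeR adjusted p = 0.164). Of the negative regulators of the pathway among the 10 genes, then, AXIN2 fell, RNF43 was lower with the block, NKD1 and ZNRF3 did not pass, and APCDD1 had no counts.

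**Figure D3:**
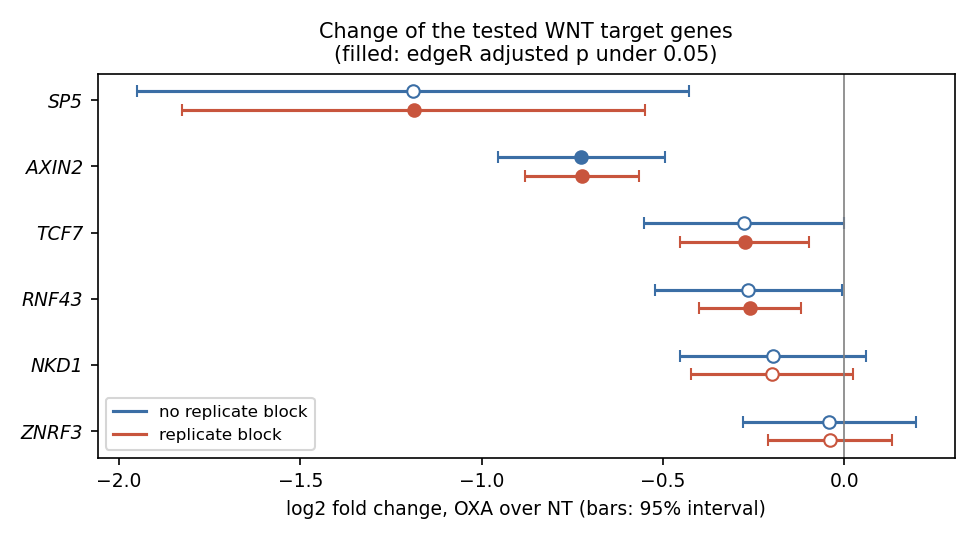
Log2 fold change of OXA over NT for the 6 tested genes with its 95% interval, from the fit without a replicate block (blue) and with it (red), filled where the edgeR adjusted p is under 0.05. AXIN2 at -0.73 is filled in both fits, SP5 at -1.19, TCF7 and RNF43 are filled only with the block, and NKD1 and ZNRF3 in neither.

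Ratios of 2 raw counts within a library do not depend on a scaling factor shared by all genes of that library. The 3 ratios among AXIN2, RNF43 and ZNRF3 were chosen after their values were seen. AXIN2 over ZNRF3 was 1.52, 1.56 and 1.33 in NT and 0.910, 0.968 and 0.860 in OXA. In raw counts, AXIN2 thus had more than ZNRF3 in every NT library and fewer in every OXA library. That crossing does not hold per kilobase of exon. There AXIN2 stayed above ZNRF3 in OXA, at 4.84, 5.31 and 4.94 against 3.95, 4.08 and 4.27. RNF43 over ZNRF3 was 4.49, 5.03 and 4.79 in NT and 3.90, 4.34 and 4.05 in OXA. AXIN2 over RNF43 was 0.338, 0.311 and 0.277 in NT and 0.233, 0.223 and 0.212 in OXA. All 3 ratios of raw counts were lower in every OXA library than in every NT library. They are not 3 separate results, since AXIN2 over ZNRF3 is the product of the other 2 ratios. The gene-specific factors of the authors change such ratios. With them AXIN2 over RNF43 overlapped between the groups, while the other 2 ratios did not. AXIN2 and RNF43 were then at 1068 and 3947 in OXA library 1, and at 1448 and 5528 in NT library 3. How often ratios of other gene pairs separate the groups was not tested. The two-sided exact permutation test gave p = 0.1 for each, before and after Benjamini-Hochberg adjustment. This is the smallest p that 3 against 3 libraries allow, so the test could not pass the threshold and decides nothing here.

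The other genes of the pathway were looked up in lists by role. Of 84 tested genes outside the 10, 4 rose (4.76%) and 1 fell (1.19%), and with the replicate block 11 were higher (13.1%) and 10 lower (11.9%). These shares stand beside 2.78% and 2.29% of all genes tested, and 12.1% and 10.9% with the block. For the lists below, 10.7% of all genes tested were higher and 11.1% lower at an unadjusted p under 0.05. DESeq2 called 4.92% higher and 4.91% lower over all genes, and limma-voom 2.73% and 2.11%. Their median log2 fold change was 0.070.

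Among ligands, secretion factors and R-spondins, 16 of 25 genes were tested. WNT16, which encodes a WNT ligand, rose from 3078, 2995 and 2799.9 normalized counts in NT to 4579, 4284 and 4338 in OXA (log2 fold change 0.57 ± 0.082, edgeR adjusted p = 0.0115). All 3 OXA libraries lay above the NT libraries, but the call was kept only without NT library 1 or NT library 2, and without each of the others the edgeR adjusted p was at most 0.0878. No gene of this list fell by edgeR, with 1 lower at an unadjusted p under 0.05, 1 by DESeq2 and 0 by limma-voom. With the block, WNT9A, WNT7B and the acyltransferase gene PORCN were also higher, at log2 fold changes of 1.09, 0.77 and 0.73 without it, and WLS, which encodes the WNT carrier, was lower at -0.39.

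In the receptor list, 14 of 18 genes were tested. FZD1, a Frizzled receptor gene, fell from 404, 438 and 409 normalized counts in NT to 248, 289 and 268 in OXA (log2 fold change -0.63 ± 0.13, edgeR adjusted p = 0.0361), and with single libraries left out it passed only without NT library 1 (edgeR adjusted p at most 0.169). No receptor gene rose by edgeR, at an unadjusted p under 0.05, or by DESeq2 or limma-voom. With the block, FZD3, FZD4, FZD7 and the R-spondin receptor gene LGR4 were also lower, at log2 fold changes without it of -0.52, -0.33, -0.44 and -0.48. Over all genes tested, 10.9% were lower with the block and 12.1% higher. FZD1, FZD3, FZD4, FZD7 and LGR4 each had every OXA library below every NT library, as did 14.4% of all genes tested. The co-receptor gene LRP6 had -0.075 (edgeR adjusted p = 0.714).

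No gene among the inhibitors, cytoplasmic transducers and nuclear partners passed the threshold by edgeR or by limma-voom. Of 6 tested inhibitors (15 listed), 1 was higher and 1 lower at an unadjusted p under 0.05, and DESeq2 called the same numbers. Over all genes tested, 10.7% were higher and 11.1% lower at that p, and 12.1% and 10.9% with the block. The block called DKK1, which encodes a secreted antagonist of LRP receptors, higher (log2 fold change 0.75 without it). It called the DKK co-receptor gene KREMEN1 lower (-0.56). Of the 18 cytoplasmic genes, all were tested, none passed by DESeq2 or at an unadjusted p under 0.05, and with the block the kinase gene CSNK1A1 was higher (0.19 without it). CTNNB1 itself averaged 19680.3 ± 1739 normalized counts in NT against 19151 ± 1628 in OXA (log2 fold change -0.039, 95% interval -0.28 to 0.21, edgeR adjusted p = 0.871). APC was at 0.077 (edgeR adjusted p = 0.762) and AXIN1 at 0.069 (edgeR adjusted p = 0.892). Of 13 tested nuclear genes (14 listed), 1 was lower at an unadjusted p under 0.05 and 1 by DESeq2, and with the block the β-catenin cofactor gene BCL9L was higher and PYGO2 lower, at 0.58 and -0.52 without it. TCF7L2, which encodes the main TCF factor of the colon, had a log2 fold change of -0.17 with no call in either fit (edgeR adjusted p = 0.302, and 0.0666 with the block).

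Among other genes often listed as WNT targets in the colon, CCND1, SOX9 and FOSL1 rose. Of 24 listed and 19 tested, 3 rose and 0 fell by edgeR, beside 2.78% and 2.29% of all genes tested. At an unadjusted p under 0.05, 5 were higher and 2 lower, where 10.7% and 11.1% of all genes tested were. DESeq2 and limma-voom called 0 lower. CCND1, which encodes cyclin D1, went from 16283, 18199 and 17935 normalized counts to 27684, 28439.7 and 27672, above NT in every library (log2 fold change 0.68 ± 0.084, edgeR adjusted p = 0.00768). SOX9, a transcription factor gene of crypt progenitors, had 5617, 5871 and 5333 in NT and 7695, 8358 and 7460 in OXA (log2 fold change 0.48 ± 0.086, edgeR adjusted p = 0.0240). FOSL1, which encodes the AP-1 subunit FRA1, went from 2689 ± 453 to 5364 ± 915 (log2 fold change 1.00 ± 0.16, edgeR adjusted p = 0.0178). With single libraries left out in turn, CCND1 was lost only without OXA library 1 (edgeR adjusted p = 0.0566), FOSL1 without NT library 3, OXA library 1 or OXA library 2 (at most 0.0852), and SOX9 in each case but that without NT library 1 (at most 0.116).

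MYC did not pass, at 0.55 (edgeR adjusted p = 0.0655), but did with the block (0.0131), as did DKK1, already given among the inhibitors. TNFRSF19 and ETS2 were lower only with the block, at -0.71 and -0.27 without it. CD44 was at -0.0053, with a 95% interval from -0.22 to 0.21, and EPHB2 at -0.12 (edgeR adjusted p = 0.785). These genes also respond to other pathways.

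**Figure D4:**
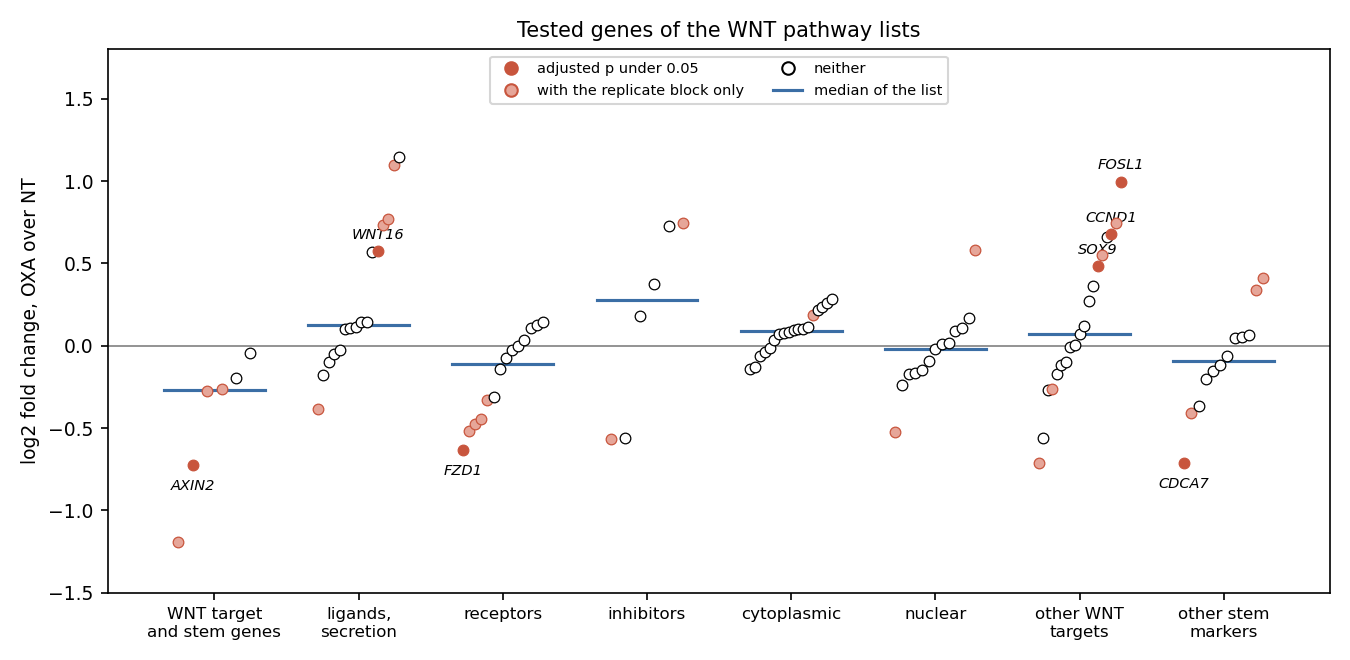
Log2 fold change of OXA over NT for each tested gene of 8 WNT and stem cell lists, with the median of each list as a blue line. Filled red points passed an edgeR adjusted p of 0.05 and carry their names, pale points passed with the replicate block only, and open points passed in neither fit. The median of the 6 tested WNT target genes lies at -0.27, and the other medians lie between -0.11 and 0.28.

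Of 16 other intestinal stem cell markers, 12 were tested, 1 fell and 0 rose, beside 2.29% and 2.78% of all genes tested. At an unadjusted p under 0.05, 2 were higher and 2 lower, where 10.7% and 11.1% of all genes tested were. DESeq2 called 1 higher and 1 lower, against 4.92% and 4.91% over all genes. For limma-voom it was 0 higher and 1 lower, against 2.73% and 2.11%. CDCA7, a gene of a chromatin remodelling cofactor, went from 3429.6, 3261 and 3584 normalized counts to 2111, 1799 and 2366 (log2 fold change -0.71 ± 0.12, edgeR adjusted p = 0.0180). Without NT library 3, OXA library 1 or OXA library 2 it did not pass (at most 0.101). With the block, CDK6 and ALCAM were also higher (0.41 and 0.34 without it) and SOX4 lower (-0.41). Over all genes tested, 12.1% were higher and 10.9% lower with the block. The crypt markers OLFM4 and SMOC2 had 1 count each over the 6 libraries. Of 20 markers of differentiated intestinal cells, 3 were tested (CA2, KRT20 and VIL1), and none passed with or without the block, at an unadjusted p under 0.05, or by DESeq2 or limma-voom. The other 17 had at most 13 counts in any library.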

How the data were processed

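Per the labels and the study's methods, polyadenylated RNA was made into stranded libraries, sequenced as paired reads and mapped to GRCh38 with STAR 2.7.5b. The submitters' processing notes also list Trimmomatic 0.32, RSEM 1.3.3 and DESeq2 2.13. The annotation and strand setting are not given in the sources used here. The authors deposited raw counts, which were whole numbers, and a normalized signal, which was the raw count times a factor that varied between genes and libraries. The signal served only as an alternative.

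Groups and replicate numbers came from the sample titles. The 10 genes, the other gene lists and the rule for naming genes (the 10, 12 further pathway genes, every other list gene past the threshold with or without the block, and CDKN1A and MDM2) were chosen with earlier results of these data known. Genes were filtered with filterByExpr (minimum count 10, minimum total 15), scaled by TMM and tested with the quasi-likelihood test of edgeR 4.0.16 (limma 3.58.1, R 4.3.3), with Benjamini-Hochberg adjustment over 13727 genes. The step was also run on counts simulated from the levels in these libraries. That run was a check of the code and bears on no call reported here. An adjusted p-value under 0.05 was the threshold. Same-numbered libraries correlated in their deviations from the group means (0.55, 0.54 and 0.31, against -0.47 to 0.090 for other pairs, with a limit of 0.1), so their numbers were taken to pair them. Neither the labels nor the methods say what a number stands for. Alternatives were other scaling factors and filters, DESeq2 1.42.0, limma-voom, a robust prior, the block and each library left out. The use of the authors' factors was chosen after seeing the data. Positions, lengths and overlaps are from GENCODE 44 on GRCh38, promoters from RefSeq. The 95% intervals come from the edgeR fit and reflect the spread between libraries. The floor of 3 counts covers counting error only, since reads carry no molecular identifiers.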

Additional observations from a re-analysis of the deposited data

How the results depend on the processing

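All 6 tested WNT target genes kept a log2 fold change below 0 in each alternative that tested them (17, and 16 for SP5, which the stricter filter removed), and 0 of the 10 were called higher. The number called lower, 1 in the report, was 4 with the replicate block, 3 with the block and the authors' gene-specific factors together, and between 0 and 3 when 1 library was left out. Other pathway genes called higher numbered 7 by DESeq2, 11 with the block, 11 with the block and those factors, and between 0 and 5 without 1 library. Those called lower numbered 5 with upper-quartile factors, 4 with library totals only, 2 without a filter, 4 with the stricter filter, 6 by DESeq2, 10 with the block, 10 with the block and those factors, 0 with those factors alone, and between 0 and 6 without 1 library. Stem and differentiation genes called higher numbered 1 by DESeq2, 2 with the block, 2 with the block and those factors, and between 0 and 2 without 1 library. Those called lower numbered 2 with the block, 4 with the block and those factors, and between 0 and 1 without 1 library. Over all genes, those called higher numbered 636 by DESeq2, 1664 with the block, 241 with the authors' factors, 1319 with both, and between 66 and 623 without 1 library. Those called lower numbered 493 with upper-quartile factors, 511 with library totals only, 479 with the stricter filter, 635 by DESeq2, 1493 with the block, 200 with the authors' factors, 1167 with both, and between 19 and 571 without 1 library, with the highest values of both directions without NT library 1 and the lowest without OXA library 1. The cause of these shifts was not tested.

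Of the 40 named genes, 6 changed sign in some alternative, none of them with a call. These were CD44 (0.050 with the authors' factors, 0.053 with the block as well, -0.073 to 0.061 without 1 library), LRP6 (0.22 with the authors' factors, 0.22 with the block as well) and, without 1 library, APC (-0.018 to 0.18), AXIN1 (-0.14 to 0.22), CTNNB1 (-0.14 to 0.030) and EPHB2 (-0.29 to 0.035). Low counts limit what can be said of LEF1, ASCL2, APCDD1 and LGR5, which had at most 3 counts a library, and of SP5, which had at most 64. Whether depth has a part in these low counts was not tested.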
